A study of Homo sapiens with 59 samples.

Results

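The comparison described here is that of HepG2 cells given 500 ug/mL of the water extract of Scutellariae Radix with HepG2 cells given the DMSO vehicle. Its members are the 3 libraries labelled as the high dose of Scutellariae Radix and the 3 vehicle libraries, 6 of the 59 libraries of the series, and all 16641 genes that passed a filter on low counts were tested. HepG2 is an established human line from a liver tumour that still makes many liver proteins, so it stands for a proliferating tumour cell and not for a resting hepatocyte. The result is set beside 4 further groups. They are the 100 and 20 ug/mL doses of the same extract, 500 ug/mL of fresh ginger (Zingiberis Rhizoma Recens) and 210 ug/mL of Coptidis Rhizoma, each with 3 libraries. All cells were harvested at 24 h, and all extracts were made with water. Vehicle was 0.1% DMSO in the sample labels but 2% in the description of the series, and the labels of the extract groups give no DMSO content. Where the extract groups held another amount of DMSO, that difference cannot be told apart from the extract's. Title codes begin with A1 for vehicle, 3 for all Scutellariae doses, 2 for fresh ginger and 4 for Coptidis libraries. The labels do not say what that beginning marks. Only the comparisons with 100 and 20 ug/mL of the same extract stay within a shared beginning. In those with vehicle, ginger and Coptidis, whatever it marks cannot be told apart from the treatment. The labels do not state whether the 3 libraries of a group were grown as separate cultures. The p-values measure the spread between libraries within groups, estimated over all 20 groups of the series, and that spread may be technical.

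Scutellariae Radix is the dried root of Scutellaria baicalensis and is rich in flavones such as baicalin, baicalein and wogonin. Liver cells meet such plant compounds with a set of sensors. The aryl hydrocarbon receptor (AhR) is a ligand-activated transcription factor that switches on CYP1 enzymes, NRF2 is the transcription factor that answers oxidants and electrophiles, and ATF4 answers shortage of amino acids and stress on protein folding. Cells of the liver also release hormones and plasma proteins, and hepcidin, the iron hormone encoded by HAMP, is held up by bone morphogenetic protein (BMP) signals through SMAD factors. The sections below follow these systems.

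Levels are given in CPM, counts scaled to a library total of 1000000, for replicates 1, 2 and 3. Changes are log2 fold changes with standard errors (SE), and a gene was called at an adjusted p under 0.05 in edgeR's quasi-likelihood test. The Scutellariae 500 ug/mL libraries held 23353005 to 23964692 counts and the vehicle libraries 24527014 to 25579687. The 10 hepatocyte markers summed to between 27320 and 28150 CPM in the Scutellariae libraries, against 40490 to 41120 CPM in the vehicle libraries, and all 10 were called lower. The 22 markers of other cell types summed to 2433 to 2607 CPM in the Scutellariae libraries and 1941 to 1970 CPM in the vehicle libraries. Of the 13 that were tested 5 were higher and 5 lower, while PTPRC, CD3E and HBB were at 0 in all 6 libraries. The number lower was 3 by DESeq2, with no filter on low counts or when only the groups compared were fitted. In bulk libraries a smaller number of cells of a kind and less RNA per cell cannot be told apart, and the share of these markers in the changes below was not tested.

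Against vehicle, 8354 genes were called, 50.2% of those tested. Of these 4118 (24.7%) were higher and 4236 (25.5%) lower in the Scutellariae libraries. The larger changes were mostly rises, since 831 called genes were more than 1 log2 unit higher and 326 more than 1 unit lower, and 260 against 44 passed 2 units. The median change over all tested genes was 0.01, and 8116 genes were called with groups that did not overlap. A count of called members of a list is therefore to be read against a background in which about every other gene was called.

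**Figure D1:**
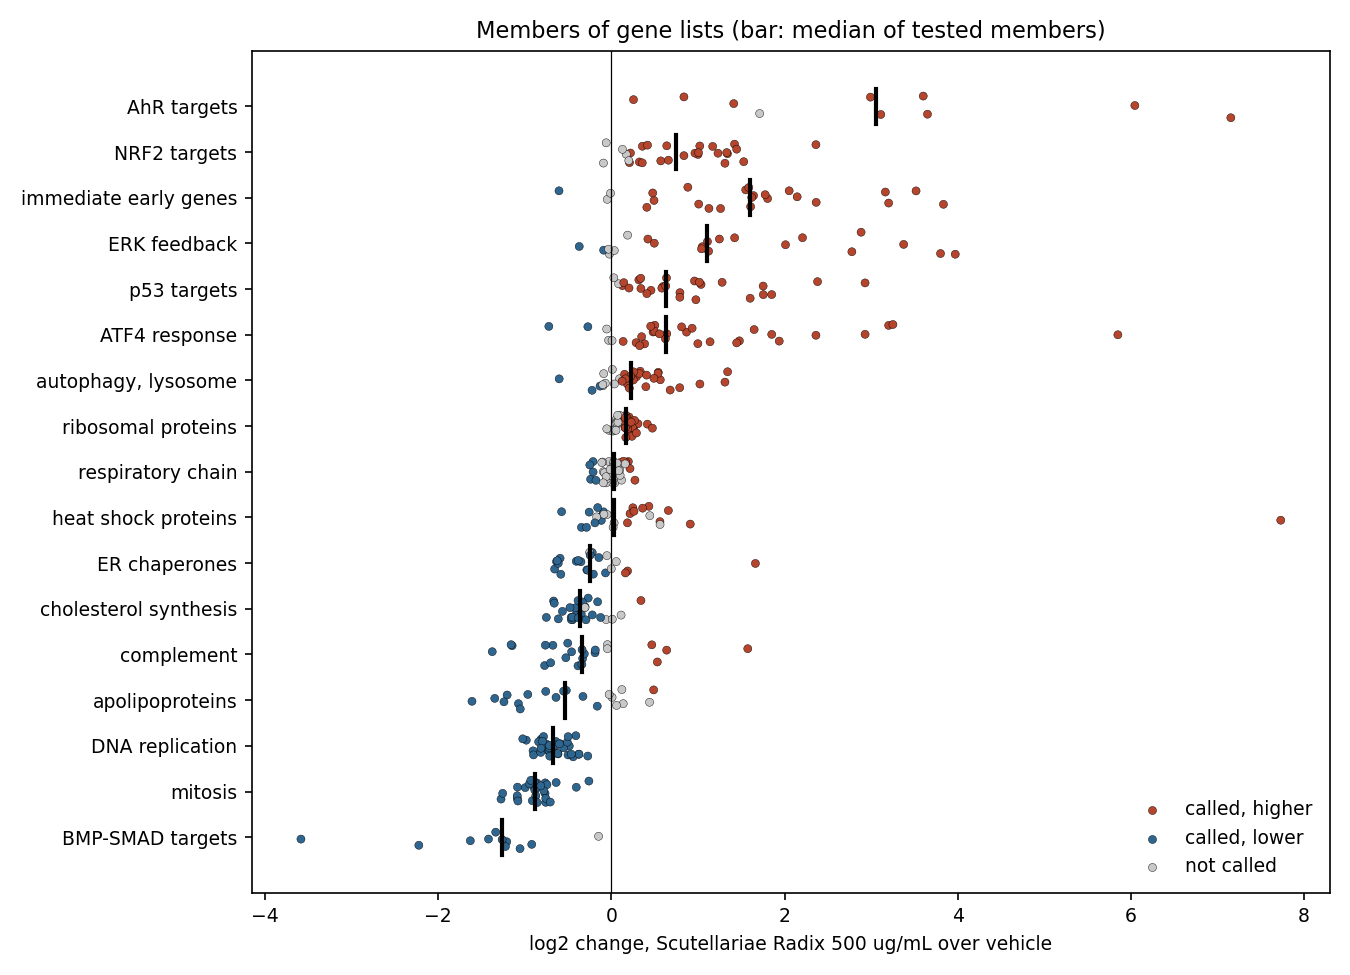
Log2 change of each tested member of 17 gene lists, Scutellariae Radix 500 ug/mL over vehicle (x axis), by list (y axis); a point is a gene, red when called higher, blue when called lower and grey when not called, and a bar is the median. The median was 3.05 for AhR targets, 1.60 for immediate early genes and -1.26 for BMP-SMAD targets, and the points of CYP1A2, CHAC1 and HSPA6 at the right are fitted values for genes with 3 or fewer counts in vehicle.

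Among the lists of drug-sensing genes the AhR targets had the largest median change. Of 10 tested AhR targets 9 were called higher and none lower, with a median change of 3.05 against 0.01 over all genes. The window around the start site of CYP1A1, the monooxygenase that is the standard readout of the receptor, and that of AHRR, the repressor that the receptor induces against itself, are shown because both genes responded and both hold the core of the receptor's binding motif. Each window runs from 250 bases before to 50 after the start site in RefSeq (GRCh38.p14), 5′ to 3′ on the strand of the gene, and capitals mark the letters GCGTG.
CYP1A1, chr15:74725479-74725778, minus strand: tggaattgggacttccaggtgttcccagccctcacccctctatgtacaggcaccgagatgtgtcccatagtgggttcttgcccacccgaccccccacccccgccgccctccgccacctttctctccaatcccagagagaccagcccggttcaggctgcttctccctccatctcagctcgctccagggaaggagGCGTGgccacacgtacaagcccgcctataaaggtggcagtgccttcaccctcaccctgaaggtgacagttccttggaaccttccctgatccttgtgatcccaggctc
AHRR, chr5:321464-321763, plus strand: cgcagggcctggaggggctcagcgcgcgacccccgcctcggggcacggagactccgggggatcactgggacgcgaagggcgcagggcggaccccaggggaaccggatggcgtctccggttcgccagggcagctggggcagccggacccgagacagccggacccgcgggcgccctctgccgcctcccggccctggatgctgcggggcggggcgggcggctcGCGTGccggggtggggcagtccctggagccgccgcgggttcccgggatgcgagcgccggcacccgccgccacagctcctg
GCGTG was searched on both strands. It stood in the windows of 5 of the 8 AhR targets that have one, and in 36.5% of 35116 promoter windows of the same length, and a match describes only the letters.

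CYP1A1 (ENSG00000140465, chromosome 15, 74719542 to 74725610) measured 811, 839 and 794 CPM in the Scutellariae libraries, against 11.5, 11.9 and 13.6 CPM in the vehicle libraries (log2 change 6.05, SE 0.092, adjusted p = 1.91e-44). Every Scutellariae library lay far above every vehicle library. CYP1A2, the second member of the locus, had 50 counts over the 3 Scutellariae libraries and 0 over the vehicle libraries, at least 17.5-fold higher against a floor of 3 counts over the group. CYP1B1, the extrahepatic relative of both, measured 0.931, 0.744 and 0.846 CPM in Scutellariae and 0, 0.038 and 0.16 CPM in vehicle libraries (log2 change 3.60, SE 0.54, adjusted p = 1.39e-07). AHRR measured 5.06, 4.88 and 4.39 CPM, against 0.463, 0.608 and 0.721 CPM in vehicle (log2 change 2.99, SE 0.20, adjusted p = 2.06e-18). ALDH3A1, an aldehyde dehydrogenase, measured 3.48, 3.8 and 2.58 CPM in Scutellariae and 0.385, 0.266 and 0.481 CPM in vehicle libraries. Its change was 3.11, and the groups of AHRR, ALDH3A1 and CYP1B1 did not overlap. NQO1, a quinone reductase that AhR and NRF2 both induce, changed by less, with 1195, 1198 and 1171 CPM in Scutellariae and 663, 669 and 662 CPM in vehicle libraries (log2 change 0.84). TIPARP, which marks the receptor for removal, was higher by only 0.26. Within the receptor complex itself, AHR was higher by 0.56, whereas the partner ARNT stood at -0.13 and was not called (adjusted p = 0.0625), but was called without Scutellariae replicate 3 (-0.19).

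Across doses the AhR targets differed among themselves. CYP1A1 averaged 12.3, 288, 738 and 815 CPM in vehicle and at 20, 100 and 500 ug/mL, and its 500 over 100 difference of 0.14 was not called (adjusted p = 0.0728), although 4 of the other settings called it at 0.13 to 0.15. NQO1 averaged 665, 958, 1148 and 1188 CPM over the same series and also did not differ between 500 and 100 ug/mL beyond the spread (log2 difference 0.05, adjusted p = 0.406). CYP1A2 was lower at 500 than at 100 ug/mL, with means of 0.677 and 1.27 CPM. AHRR (500 over 100 difference 0.23, adjusted p = 0.194, but called at 0.40 without replicate 3 of 100 ug/mL) and ALDH3A1 (-0.31, adjusted p = 0.116) were not called, while CYP1B1 (1.32) and UGT1A1 (1.42) were higher at 500 ug/mL. In all, 5 of the 10 members were called higher at 500 than at 100 ug/mL and 1 lower. Over all genes 48.5% were called between these 2 doses, 24.0% higher and 24.5% lower.

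**Figure D2:**
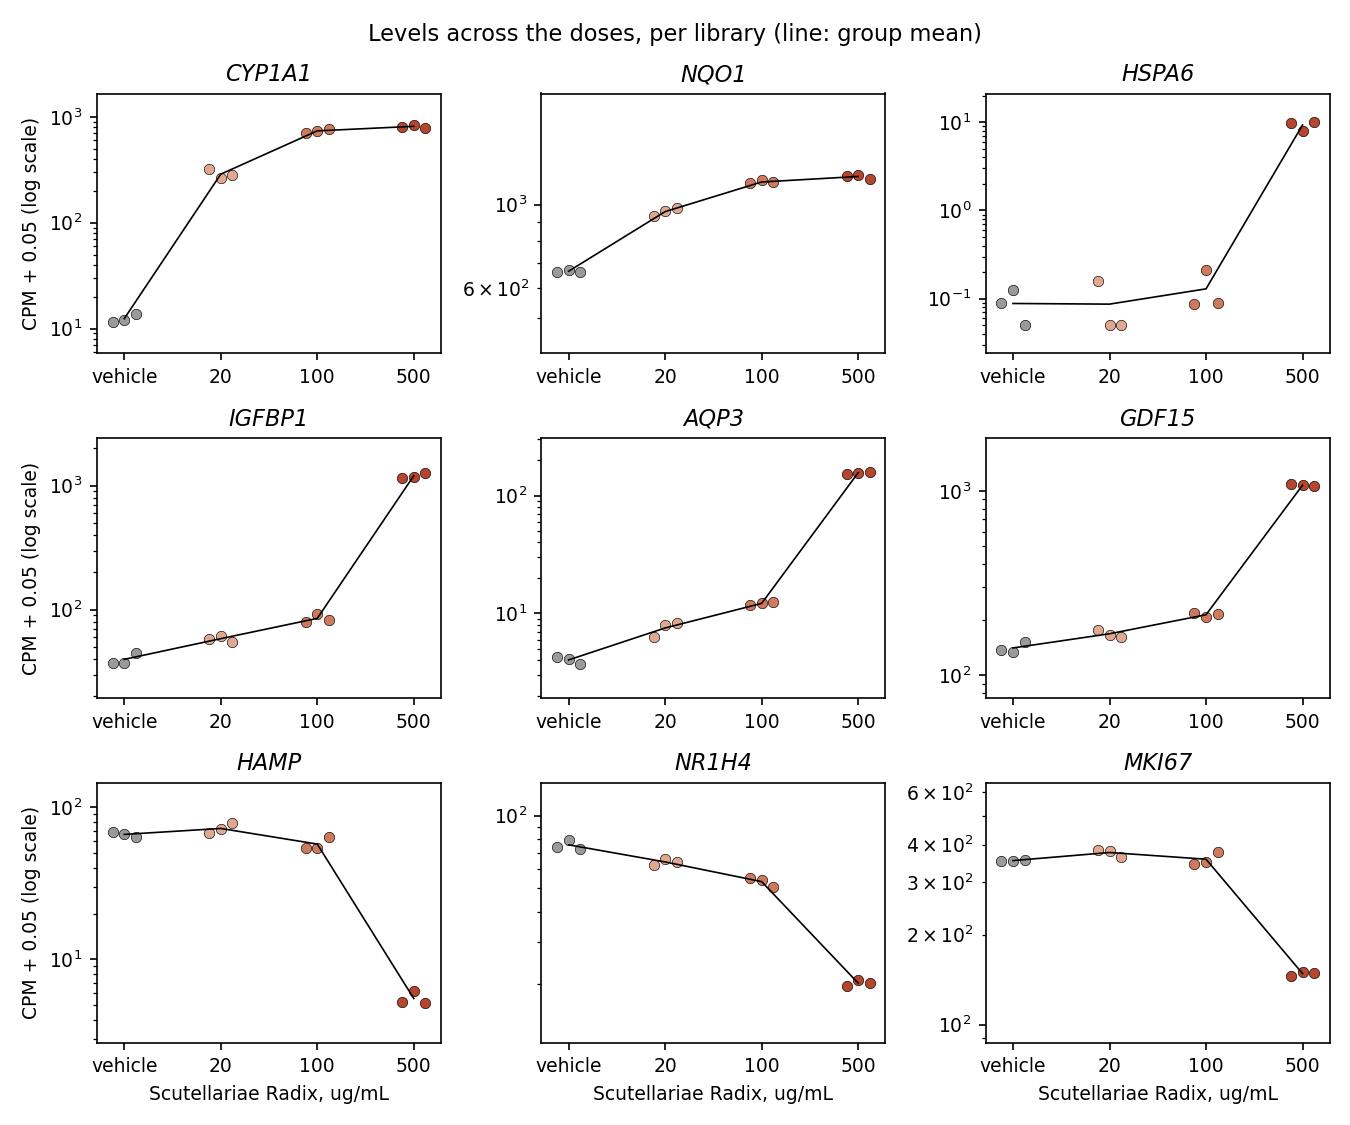
CPM plus 0.05 on a log scale (y axis) in each library of vehicle and of Scutellariae Radix at 20, 100 and 500 ug/mL (x axis) for 9 genes; points are libraries and lines join group means. CYP1A1 and NQO1 stood near their top level at 100 ug/mL, whereas HSPA6, IGFBP1, AQP3, GDF15, HAMP, NR1H4 and MKI67 moved mostly between 100 and 500 ug/mL.

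Enzymes of conjugation and transport did not move as a block. UGT1A1, which joins glucuronic acid to bilirubin and to flavones, measured 2.59, 2.15 and 1.77 CPM in Scutellariae and 0.0771, 0.228 and 0.2 CPM in vehicle libraries (log2 change 3.65, SE 0.41, adjusted p = 1.15e-10). The UGT1A genes share their last exons and reads may be split among them, and with the counts of the locus summed the change was 3.16. Of 8 UDP-glucuronosyltransferases 2 were higher and 3 lower. UGT2B4, which conjugates bile acids, was lower (-1.29), as was UGT2B10 (-0.39), and UGDH, which makes the glucuronic acid donor, was slightly higher (0.10). Of 17 glutathione S-transferases and sulfotransferases 10 were lower and 2 higher (1 higher by DESeq2 or with a replicate block). GSTA1 measured 28.1, 26.9 and 25.8 CPM in Scutellariae, against 83.3, 84.2 and 79 CPM in vehicle libraries (log2 change -1.61, SE 0.059, adjusted p = 2.05e-28), and its near-identical copy GSTA2 was lower by a similar step (-1.52; both copies summed -1.60). SULT2A1, which sulfates steroids and bile acids, was lower (-1.10), and MGST1, a membrane-bound transferase, higher (0.67).

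Among the cytochromes P450 of families CYP2, CYP3 and CYP4, which meet most drugs, listed together with their receptors and reductase, 5 of 16 tested members were higher and 4 lower. The largest was CYP2S1, an extrahepatic enzyme, with a mean of 7.28 ± 0.135 CPM in Scutellariae and 3.61 ± 0.754 CPM in vehicle libraries (SD, n = 3 each; log2 change 1.01). CYP3A4, the main drug-metabolising enzyme of the liver, was low at 0.191 CPM in Scutellariae and 0.286 CPM in vehicle libraries and was not called (adjusted p = 0.47). CYP3A7, its fetal form, was lower (-0.79). Of those called higher 2 were the receptors behind these genes, NR1I2 (PXR) by 0.31 and NR1I3 (CAR) by 0.66, a call that DESeq2 and 4 of the 6 fits without 1 library lost (Scutellariae replicate 1 or 2, vehicle replicate 1 or 2; 0.55 to 0.66). Of 16 transporters 5 were higher, all of them ATP-driven efflux pumps: ABCC2 (1.17), ABCC3 (0.96), ABCB1 (0.67), ABCG2 (0.60) and ABCC1 (0.55). ABCC2, the pump for conjugates into bile, measured 789, 744 and 779 CPM in Scutellariae and 343, 339 and 345 CPM in vehicle libraries. The 7 that fell comprised 5 carriers of organic ions, among them SLCO2B1 (-0.93), SLC22A7 (-0.86) and SLC47A1 (-0.51), and the pumps ABCB4 (-0.95), which moves phospholipid into bile, and ABCC6 (-0.65).

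NRF2 targets were higher in 23 of 28 tested members and lower in none, with a median of 0.75. The number lower was 1 when only the groups compared were fitted or without 3 libraries of other groups that stand apart. The cystine importer gene SLC7A11 (ENSG00000151012, chromosome 4, 138164097 to 138242349) measured 268, 269.8 and 291 CPM in Scutellariae and 53, 55.6 and 52.5 CPM in vehicle libraries (log2 change 2.36, SE 0.069, adjusted p = 1.28e-32). Both subunits of the enzyme that then starts glutathione synthesis were higher, the catalytic GCLC by 1.42 and the regulatory GCLM by 1.34. SRXN1 measured 302, 288 and 307 CPM in Scutellariae and 104, 105 and 102 CPM in vehicle libraries (log2 change 1.53), and TXNRD1, thioredoxin reductase, 646, 639 and 673 CPM against 242, 242 and 234 CPM (1.45). No Scutellariae library of these genes overlapped a vehicle library. HMOX1, which breaks down haem, was higher by 1.02 and the aldo-keto reductases AKR1B10 and AKR1C1 by 1.33 and 1.01. The genes of the pentose phosphate route that supplies NADPH moved by small steps, with PGD at 0.22 and TKT at 0.36. PRDX1 (-0.09, adjusted p = 0.196) and EPHX1 (-0.06, adjusted p = 0.246) were not called. Between 500 and 100 ug/mL 18 were higher and 3 lower, the lower ones being GSR, PIR and EPHX1.

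Among iron genes the hepcidin gene fell furthest. HAMP (ENSG00000105697, chromosome 19, 35280716 to 35285143) measured 5.22, 6.12 and 5.16 CPM in the Scutellariae libraries, against 68.2, 66 and 63.9 CPM in the vehicle libraries (log2 change -3.59, SE 0.09, adjusted p = 2.67e-35). The groups were far apart. HAMP averaged 66, 72.2, 57.1 and 5.5 CPM in vehicle and at 20, 100 and 500 ug/mL, so most of the change lay between the 2 upper doses (500 over 100 difference -3.38, adjusted p = 8.51e-34). Its start-site window is shown because it holds the core of a BMP response motif, GGCGCC, here in capitals, as does the window of 1 other of the 10 BMP-SMAD targets with a window, BAMBI, and 19.2% of all windows (both strands searched, GRCh38.p14).
HAMP, chr19:35282278-35282577, plus strand: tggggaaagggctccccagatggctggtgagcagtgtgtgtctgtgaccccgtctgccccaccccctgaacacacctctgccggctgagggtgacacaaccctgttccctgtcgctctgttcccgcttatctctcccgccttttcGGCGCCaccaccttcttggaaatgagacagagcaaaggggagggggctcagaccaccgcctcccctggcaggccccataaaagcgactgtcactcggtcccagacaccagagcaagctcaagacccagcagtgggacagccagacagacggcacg

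The rest of the BMP-SMAD targets were lower along with HAMP. Of 11 tested members 10 were lower and none higher, with a median of -1.26. The ID genes encode inhibitors of helix-loop-helix factors and are the best known BMP targets. ID1 measured 60.8, 62.7 and 64.5 CPM in Scutellariae and 156, 159 and 160.3 CPM in vehicle libraries (log2 change -1.34, SE 0.078, adjusted p = 1.99e-20). The log2 change was -1.06 for ID2, -1.21 for ID3 and -2.22 for ID4. The inhibitory SMADs, which the pathway induces to restrain itself, were lower too. SMAD6 measured 4.69, 5.99 and 6.16 CPM in Scutellariae and 12.5, 14.2 and 12.7 CPM in vehicle libraries (-1.22), and SMAD7 11.3, 12.4 and 10.8 CPM against 21.8, 22 and 21.6 CPM (-0.92). SMAD9, a SMAD of the BMP branch that is also its target, changed by -1.63. TMPRSS6, the protease that trims the hepcidin pathway, changed by -1.42 and ATOH8, a factor that acts on HAMP, by -1.26. BAMBI, a decoy receptor, was the only tested member not called (-0.15, adjusted p = 0.0751), although it was called without vehicle replicate 2 (-0.19). The ligand gene BMP6 moved the other way from a low level, with 0.607, 0.909 and 0.725 CPM in Scutellariae and 0.0385, 0.19 and 0 CPM in vehicle libraries (log2 change 3.19, SE 0.56, adjusted p = 3.49e-06; 4.94 without vehicle replicate 2). The list was also lower in 10 of 11 members against 100 ug/mL, 10 against 20 ug/mL, 11 against fresh ginger and 10 against Coptidis, with none higher in any of these. Genes called lower made up 25.4% of all tested against 20 ug/mL, 18.8% against ginger and 30.9% against Coptidis. By group means HAMP, ID1, ID2, ID3, ID4, SMAD6, SMAD9 and TMPRSS6 stood lower in ginger than in vehicle libraries too. SMAD7, ATOH8 and BAMBI stood higher in ginger. HAMP averaged 21 CPM in ginger and 66 CPM in vehicle libraries, and SMAD9 16.8 and 24.6 CPM. In Coptidis libraries ID1, ID2, ID3, SMAD7, ATOH8 and BAMBI stood higher than in vehicle libraries by their means. ID4, SMAD6, SMAD9 and TMPRSS6 stood lower there. HAMP was near its vehicle level, with 63.2 ± 2.45 CPM in Coptidis and 66 ± 2.15 CPM in vehicle libraries (SD, n = 3 each). The differences of ginger and Coptidis from vehicle were not tested.

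**Figure D3:**
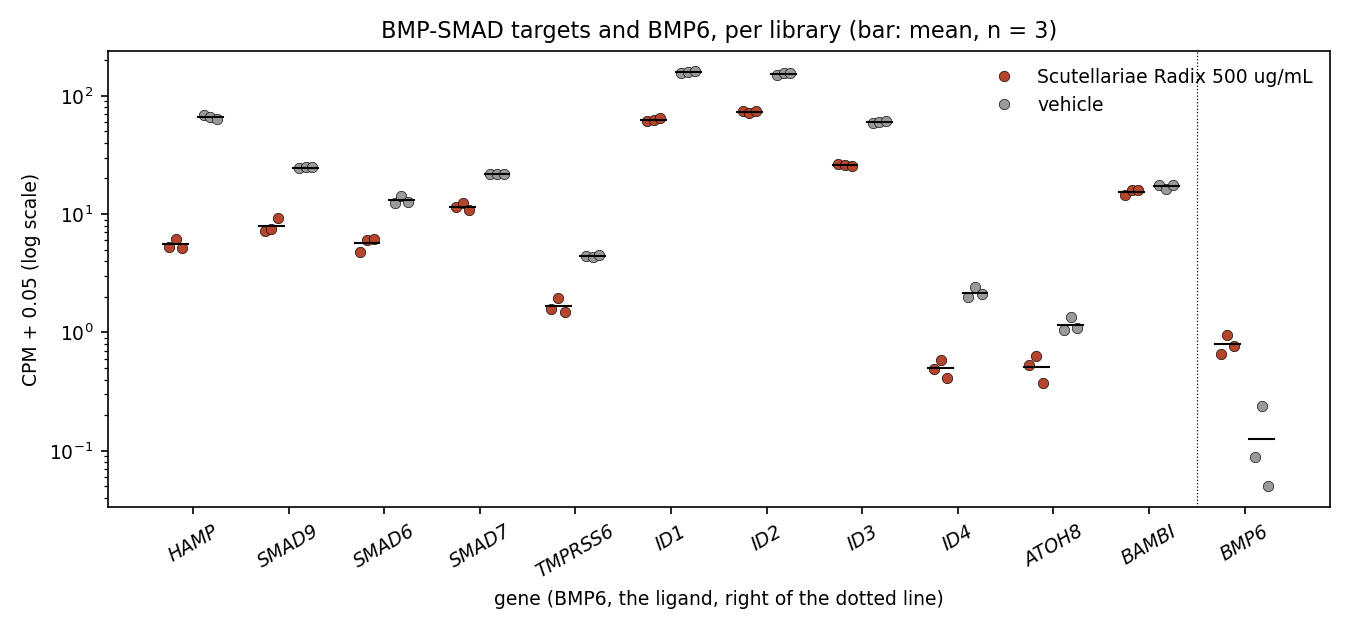
CPM plus 0.05 on a log scale (y axis) of 11 BMP-SMAD targets and of the ligand gene BMP6 (x axis) in each Scutellariae Radix 500 ug/mL library (red, left of each pair) and vehicle library (grey, right); bars are means of 3 libraries. The groups did not overlap for any of the 11 targets, although those of BAMBI lay close together, and BMP6 was higher in all 3 Scutellariae libraries. Of the 11 targets 10 were called with groups that did not overlap, BAMBI not being called, as were 8116 of all 16641 tested genes.

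Other iron genes moved in both directions, 8 of 20 higher and 8 lower. Ferritin was higher, FTH1 by 1.00 and FTL by 0.36, as was the exporter ferroportin, SLC40A1 (108, 103 and 113 CPM in Scutellariae, 66.1, 65.3 and 65.8 CPM in vehicle libraries; log2 change 0.72). The plasma carrier TF was lower (-0.84), as were the ferritin receptor NCOA4 (-0.52) and the importer SLC11A2 (-0.52). The transferrin receptor TFRC was higher by 0.21 and its sensor relative TFR2 lower (-0.33). Metallothioneins are small proteins that bind zinc and copper. Of 22 tested metallothioneins and genes of zinc transport 13 were lower and 5 higher. MT1G measured 24.8, 23.7 and 19.7 CPM in Scutellariae and 87.8, 90.3 and 113 CPM in vehicle libraries (log2 change -2.09, SE 0.14, adjusted p = 1e-17), and MT1F 12.4, 11.9 and 11 CPM against 53.7, 53.5 and 58 CPM (-2.22). The log2 change was -1.82 for MT1X and -1.59 for MT1E, but only -0.39 for MT2A, whose call was lost without vehicle replicate 3 (-0.28). These genes are near-identical copies between which reads can be split, and with the counts of all copies summed the change was -0.96. That sum includes MT2A, the most abundant copy named here, with means of 294 CPM in Scutellariae and 386 CPM in vehicle libraries. The zinc importer SLC39A10 was higher (1.14) and SLC39A5 lower (-0.76), and MTF1, the zinc sensor, rose slightly (0.20), a call lost without Scutellariae replicate 2 (0.15).

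Listed chaperones of the endoplasmic reticulum (ER), with genes of its unfolded protein response, were lower in 16 of 23 tested members and higher in 3. HSPA5, the main ER chaperone, measured 973, 941 and 942 CPM in Scutellariae and 1438, 1445 and 1428 CPM in vehicle libraries (log2 change -0.59, SE 0.032, adjusted p = 1.73e-21). The log2 change was -0.58 for CALR, a chaperone of glycoproteins, -0.63 for the disulfide isomerase PDIA4 and -0.66 for CRELD2. The stress sensor ERN1 went the other way, with 43.9, 42.2 and 46 CPM in Scutellariae and 13.4, 15.6 and 12.7 CPM in vehicle libraries (log2 change 1.66), while the factor its protein activates, XBP1, was lower (-0.21). Splicing of XBP1 cannot be read from gene counts.

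Heat shock proteins, co-chaperones and their factors, a list that includes the mitochondrial HSPD1 and HSPE1, were higher in 10 of 26 and lower in 9, with 1 gene far from the rest. HSPA6 (ENSG00000173110, chromosome 1, 161524540 to 161526910), a strictly inducible HSP70 of human cells, had 684 counts over the 3 Scutellariae libraries and 3 over the vehicle libraries, a ratio of 239 with a 95% counting interval of 81.4 to 1161. Its levels were 9.75, 7.94 and 10.1 CPM in Scutellariae and 0.0385, 0.076 and 0 CPM in vehicle libraries (adjusted p = 3.84e-19). Group means were 0.0382, 0.0367, 0.0792 and 9.27 CPM in vehicle and at 20, 100 and 500 ug/mL. Its window is shown with the paired heat shock motif GAANNTTC in capitals, of which it holds 2. These letters stood in 9 of the 23 heat shock genes that have a window and in 6.77% of all windows (both strands searched, GRCh38.p14).
HSPA6, chr1:161524290-161524589, plus strand: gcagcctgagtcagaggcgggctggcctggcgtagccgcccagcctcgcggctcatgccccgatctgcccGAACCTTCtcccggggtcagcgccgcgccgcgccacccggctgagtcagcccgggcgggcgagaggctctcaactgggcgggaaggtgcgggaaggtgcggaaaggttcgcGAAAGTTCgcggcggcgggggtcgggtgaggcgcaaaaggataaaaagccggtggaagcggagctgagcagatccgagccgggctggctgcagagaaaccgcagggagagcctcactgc
The other inducible HSP70 genes changed by little. HSPA1A measured 229, 208 and 214 CPM in Scutellariae and 147, 145 and 149.6 CPM in vehicle libraries (0.56), and with its copy HSPA1B summed the change was 0.48. DNAJB1, an HSP40 partner, stood at 0.03 and was not called (adjusted p = 0.563). HSP90AA1 (-0.35) and DNAJA1 (-0.29) were lower, and the co-chaperone BAG3 was higher (0.25). Proteasome subunits were higher in 16 of 31 and lower in 2 (4 when only the groups compared were fitted) by small steps, with PSMD2 the largest (0.56).

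The ATF4 amino acid response was higher in 27 of 32 tested members and lower in 2, with a median of 0.63. By DESeq2 or with no filter on low counts 1 was lower. PPP1R15A, the phosphatase subunit that restarts translation, measured 149, 136 and 149 CPM in Scutellariae and 14.3, 15.4 and 15.8 CPM in vehicle libraries (log2 change 3.25, SE 0.062, adjusted p = 2.23e-40). ATF3, a factor that ATF4 induces, measured 39.1, 36.9 and 42.8 CPM, against 4.28, 4.37 and 4.25 CPM in vehicle (3.20). The groups of both genes lay far apart. GDF15, a secreted stress hormone that is also a p53 target, measured 1085, 1074 and 1058 CPM in Scutellariae and 137, 134 and 151 CPM in vehicle libraries (log2 change 2.93, SE 0.058, adjusted p = 1.45e-39), and averaged 213 CPM at 100 ug/mL. ASNS, asparagine synthetase, was higher by 1.65, TRIB3 by 1.14, DDIT3 (CHOP) by 1.00, SESN2 by 1.85 and ATF4 itself by 0.50. CHAC1, which degrades glutathione, had 20 counts in Scutellariae and 0 in vehicle libraries, at least 6.98-fold higher. The serine synthesis genes were split, PSAT1 at 0.14, PSPH at -0.27 and PHGDH at 0.01 (adjusted p = 0.901).

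Genes known to be switched on early by growth factor signals were high at 24 h. Of 24 immediate early genes 21 were higher and 1, CCN2, lower (-0.61), with a median of 1.60. FOS measured 10.3, 7.48 and 9.59 CPM in Scutellariae and 0.732, 0.646 and 0.521 CPM in vehicle libraries (log2 change 3.84, SE 0.21, adjusted p = 1.19e-21). FOSL1, a longer-lived relative, measured 69.4, 65 and 74.1 CPM against 13.7, 12.5 and 14.3 CPM (2.37) and EGR1 102, 101 and 116 CPM against 11.7, 11.1 and 12.8 CPM (3.16). No library of these 3 genes overlapped between the groups. JUN was higher by 1.64, IER3 by 2.05 and MYC by 0.48, while SRF, which drives many of them, stood at -0.01 and was not called (adjusted p = 0.851).

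The genes that ERK, the last kinase of the growth factor cascade, induces as feedback were higher in 15 of 21 and lower in 2. With no filter on low counts 1 was lower. DUSP5, a nuclear phosphatase of ERK, measured 62.5, 59.6 and 68.9 CPM in Scutellariae and 3.85, 3.91 and 4.41 CPM in vehicle libraries (log2 change 3.97, SE 0.08, adjusted p = 2.2e-39). DUSP1 was higher by 2.78, DUSP6 by 1.12 and SPRY4 by 1.25. SPRY1 was lower (-0.37) and so was ETV4 (-0.09), a call lost without Scutellariae replicate 3 or vehicle replicate 2 (-0.08 each). The list also holds ligands of the epidermal growth factor receptor. EREG measured 15.6, 15.5 and 16.2 CPM in Scutellariae and 1.23, 1.06 and 1.08 CPM in vehicle libraries (3.80), AREG 67.2, 64.3 and 71.9 CPM against 7.05, 5.81 and 6.73 CPM (3.38), and HBEGF and TGFA changed by 2.21 and 0.49. CXCL8, a neutrophil chemokine, was higher by 2.45 among the acute phase and NF-kappaB targets, of which 8 of 19 were higher and 5 lower, NFKBIA, the inhibitor that NF-kappaB induces, being lower (-0.30).

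Of 12 tested genes of insulin-like growth factors, their binders and receptors 8 were higher and 2 lower (1 lower without Scutellariae replicate 1 or vehicle replicate 3), with a median of 0.49. IGFBP1 (ENSG00000146678, chromosome 7, 45888357 to 45893668) measured 1158, 1181 and 1262 CPM in Scutellariae and 37.5, 37 and 44.8 CPM in vehicle libraries (log2 change 4.92, SE 0.094, adjusted p = 3.07e-40). IGFBP3 measured 5.87, 6.2 and 5.68 CPM, against 0.154, 0.228 and 0.28 CPM in vehicle (4.72). Of the other binders, IGFBP2 and IGFBP4 were higher by 0.96 and 0.54, and IGFBP6 was not called (0.03, adjusted p = 0.922). The growth factor gene IGF2 was lower (822, 846 and 821 CPM in Scutellariae, 1378, 1319 and 1447 CPM in vehicle libraries; -0.74). Of 16 genes of gluconeogenesis and of those that insulin holds down, 5 were higher and 5 lower, with G6PC1, which releases glucose, at 0.73 and PCK1 at 0.13 (adjusted p = 0.417). PLAU, an activator of plasminogen, was higher by 1.09. Its receptor gene PLAUR averaged 4.11 CPM in Scutellariae and 1.68 CPM in vehicle libraries (adjusted p = 5.39e-11).

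Genes of matrix proteases, matrix and integrins were higher in 11 of 22 tested and lower in 5. MMP3, stromelysin, measured 39.1, 37.6 and 44.1 CPM in Scutellariae and 1.27, 1.33 and 1.12 CPM in vehicle libraries (log2 change 5.01, SE 0.12, adjusted p = 5.86e-37). TIMP1, an inhibitor of such proteases, was higher by 1.63 and the collagen-binding integrin ITGA2 by 1.88. AQP3 (ENSG00000165272, chromosome 9, 33441154 to 33447633), a channel for water and glycerol, measured 153, 156 and 158 CPM, against 4.24, 4.06 and 3.65 CPM in vehicle (log2 change 5.29, SE 0.077, adjusted p = 7.27e-45), and SLC6A12, a betaine transporter, 1.78, 1.49 and 1.65 CPM against 8.13, 8.7 and 8.45 CPM (-2.36). VGF, a granin-like secreted protein of neurons and endocrine cells, measured 79.9, 82 and 89.7 CPM in Scutellariae and 3.12, 2.89 and 2.6 CPM in vehicle libraries (4.87). The groups of AQP3, SLC6A12 and VGF lay apart.

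Genes of mitosis and DNA replication fell. All 30 mitotic genes were lower, with a median of -0.88, and so were all 35 DNA replication genes, with a median of -0.67, against 25.5% of all tested genes called lower. MKI67, the proliferation marker, measured 146, 149 and 149 CPM in Scutellariae and 353, 353 and 355 CPM in vehicle libraries (log2 change -1.26, SE 0.093, adjusted p = 1.5e-16). The log2 change was -1.09 for the kinase gene PLK1 and -0.98 for the helicase subunit MCM2. The cyclin CCNA2 averaged 87.1 CPM in Scutellariae and 174 CPM in vehicle libraries (adjusted p = 1.02e-27). MKI67 averaged 354, 376, 357 and 148 CPM in vehicle and at 20, 100 and 500 ug/mL, and all members of both lists were also lower at 500 than at 100 ug/mL. Of 27 p53 targets 25 were higher and none lower, with a median of 0.64. CDKN1A, the p21 inhibitor of cyclin-dependent kinases, measured 495, 503 and 490.1 CPM in Scutellariae and 96.7, 91.1 and 97.9 CPM in vehicle libraries (log2 change 2.38, SE 0.052, adjusted p = 6.55e-38). MDM2, which degrades p53, was higher by 0.96, BBC3 (PUMA) by 1.60 and GADD45A by 1.28. CCNG1 (0.03, adjusted p = 0.663) and SESN1 (0.08, adjusted p = 0.152) were not called. Of 17 genes of the D cyclins, inhibitors of cyclin-dependent kinases and other controls of cycle entry, CDKN1A among them, 5 were higher and 8 lower. CDKN2B (p15) was higher (2.33) and CDKN2C (p18) lower (-1.57), and cyclin CCND1 was lower (-0.43). Of 23 apoptosis genes 14 were higher and 5 lower, with the survival gene MCL1 at 0.92.

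Genes of hepatocyte identity were mostly lower. Of 22 transcription factors of the liver 14 were lower and 2, CEBPB and CEBPD, higher, of which 1 was called without Scutellariae replicate 2 or vehicle replicate 1 or 2. CEBPA, which keeps hepatocytes differentiated and quiescent, measured 39.1, 38.4 and 39.5 CPM in Scutellariae and 123, 123 and 123 CPM in vehicle libraries (log2 change -1.66, SE 0.10, adjusted p = 1.06e-19), while CEBPB, its stress-induced relative, was higher by 1.45. HNF4A, the central factor of the list, changed by only -0.09 against vehicle, and FOXA1, which opens liver enhancers, by -0.71. HNF4A averaged 351, 419, 434 and 329 CPM in vehicle and at 20, 100 and 500 ug/mL (500 over 100 difference -0.40, adjusted p = 4.43e-16). NR1H4, the bile acid receptor FXR, measured 19.6, 20.8 and 20.1 CPM, against 74.4, 79.5 and 72.9 CPM in vehicle (log2 change -1.91, SE 0.054, adjusted p = 6.55e-33), and of 14 bile acid genes 8 were lower and 1, NR0B2, higher (0.16), a call lost in every fit without 1 library (0.13 to 0.18). AKR1D1, which reduces the steroid ring on the way to bile acids, changed by -1.44.

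Products that the liver secretes fell in most cases. Plasma carriers and related proteins were lower in 20 of 25 tested members and higher in 2, the protease inhibitor SERPINA3 (0.23) and AMBP (0.27). SERPINA3 was not called without vehicle replicate 2 (0.13). ALB, albumin, measured 8280.4, 7965 and 8194 CPM in Scutellariae and 10312, 10709 and 10848 CPM in vehicle libraries (log2 change -0.38, SE 0.055, adjusted p = 5.84e-08). TTR, which carries thyroid hormone, changed by -0.92, haptoglobin, HP, by -1.12 and haemopexin, HPX, by -1.25. AFP, the fetal counterpart of albumin, was lower as well (-0.58). Complement genes were lower in 17 of 23 and higher in 4. C3, the hub of the cascade, changed by -0.46, C5 by -0.76 and C4BPA, an inhibitor, by -1.15. CD55, which shields the cell's own surface from complement, went the other way, with 38.6, 37.7 and 39.1 CPM in Scutellariae and 12.5, 13.9 and 12.3 CPM in vehicle libraries (1.57). Coagulation genes were lower in 16 of 28 and higher in 6. The fibrinogen chains FGA, FGB and FGG changed by -0.78, -0.82 and -0.56. KNG1, kininogen, measured 1.29, 1.36 and 1.01 CPM in Scutellariae and 6.75, 5.93 and 5.41 CPM in vehicle libraries (-2.30), and the groups did not overlap.

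Lipid genes were lower in most members of 3 lists. Cholesterol synthesis and uptake genes were lower in 23 of 28 tested members and higher in 1, with a median of -0.36. HMGCS1, which feeds the pathway, measured 289, 291 and 283 CPM in Scutellariae and 491, 495 and 467 CPM in vehicle libraries (log2 change -0.75, SE 0.051, adjusted p = 4.83e-18). SQLE, squalene epoxidase, changed by -0.67. Fatty acid and triglyceride synthesis was lower in 15 of 20 and higher in 2. GPAM, the first step of triglyceride synthesis, changed by -1.05, SCD, a desaturase, by -0.66 and FASN, fatty acid synthase, by -0.43. Apolipoproteins and lipoprotein assembly were lower in 13 of 20 and higher in 1, PLTP (0.49), with 2 higher by DESeq2 or with no filter, and 3 when only the groups compared were fitted or without the 3 libraries of other groups that stand apart. APOB, the backbone of liver lipoproteins, measured 10874, 10939 and 11526 CPM in Scutellariae and 18797, 18893 and 18729.9 CPM in vehicle libraries (log2 change -0.76, SE 0.11, adjusted p = 5.71e-08), and APOH and APOC3 changed by -1.24 and -1.07. APOE (0.06, adjusted p = 0.587) was not called. Fatty acid oxidation and PPAR alpha targets were mixed, 8 of 22 higher and 10 lower. CPT1A, which admits fatty acids into mitochondria, was higher (0.80), as were the lipid droplet coat gene PLIN2 (0.89) and the pantetheinase gene VNN1 (2.29), while HADH, a later step of oxidation, was lower (-0.58).

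Lists of the respiratory chain, ribosomes, autophagy, Wnt feedback, the clock and the interferon response differed in how far they moved. Respiratory chain subunits encoded in the nucleus were higher in 5 of 41 and lower in 5, under the background share in both directions, but in 12 and 9 when only the groups compared were fitted. Mitochondrial transcripts were higher in 4 of 13 and lower in none, the largest being MT-ND4L (0.41). With no filter on low counts or when only the groups compared were fitted 8 were higher. Cytosolic ribosomal proteins were higher in 26 of 40 and lower in none by small steps, with a median of 0.16 and RPS12 at 0.47. Ribosome biogenesis was mixed, 13 of 31 higher and 11 lower. Autophagy and lysosome genes were higher in 23 of 33 and lower in 3, or in 6 when only the groups compared were fitted or without those 3 libraries. SQSTM1, the p62 cargo receptor and also an NRF2 target, measured 576, 567 and 585 CPM in Scutellariae and 222, 235 and 239 CPM in vehicle libraries (1.31), and GABARAPL1 and MAP1LC3B, which coat autophagosomes, were higher by 1.34 and 1.02. TFEB, a master regulator of lysosome genes, was lower (-0.60). Wnt feedback targets, which HepG2 cells express through their mutated beta-catenin, were lower in 12 of 16 and higher in 1, TBX3 (0.35). The secreted Wnt inhibitor DKK1 measured 41, 41.5 and 40.8 CPM in Scutellariae and 109, 107 and 108 CPM in vehicle libraries (-1.40), while AXIN2, the usual readout, stood at -0.02 and was not called (adjusted p = 0.7). Of 17 clock genes 9 were lower and 4 higher, with the output factor DBP at -1.70 and the repressors NR1D1 and BHLHE40 at 1.13 and 1.62. Interferon response genes were higher in 6 of 27 and lower in 7, among them the RNA sensor OAS1 (1.29) and the immunoproteasome gene PSMB9 (-1.17).

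Glycolysis and hypoxia genes rose in 18 of 36 and fell in 10. PFKP, a platelet-type phosphofructokinase, was higher (1.43), as were DDIT4, a brake on mTOR (1.29), and NDRG1 (0.95). The glucose transporter SLC2A3 was lower (-0.84) and SLC2A1 higher (0.31). The hypoxia marker CA9 was near 0.677 CPM in Scutellariae and 0.598 CPM in vehicle libraries and was not called (adjusted p = 0.641), and VEGFA was higher by 0.45.

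The rule for single genes took the 12 largest changes in each direction among called genes whose groups did not overlap and whose higher group averaged at least 5 CPM. Rises not described above were IGFN1, a muscle protein gene, with 47.5, 45.8 and 48.8 CPM in Scutellariae and 1.5, 1.44 and 1.16 CPM in vehicle libraries (5.10), and PAQR5, a membrane receptor for progesterone, with 19, 19.5 and 19.9 CPM against 1.12, 1.06 and 1.36 CPM (4.04). The largest fall was that of EIF3CL, with 1.86, 1.36 and 1.29 CPM in Scutellariae and 26.6, 26.1 and 57.7 CPM in vehicle libraries (log2 change -4.60, SE 1.43, adjusted p = 0.00612). This gene is a near-identical copy of EIF3C, a subunit of a translation initiation factor, and with the counts of both copies summed the change was 0.02 (adjusted p = 0.639), so the fall of EIF3CL taken alone is uncertain. ACSM2A and ACSM2B, a pair of near-identical medium-chain acyl-CoA synthetases, changed by -3.05 and -2.67, and by -2.78 with their counts summed. ACSM2B measured 1.94, 2.73 and 2.82 CPM in Scutellariae and 16.5, 15.8 and 15.3 CPM in vehicle libraries. Further falls were those of the potassium channel gene KCNJ10 (-2.24), the homeobox gene HOXD1 (-2.21) and the tight junction gene TJP3 (2.31, 1.49 and 1.69 CPM in Scutellariae, 8.44, 7.45 and 7.73 CPM in vehicle libraries; -2.10). The pseudogene ACSL3P1 changed by -2.17 but shares its sequence with ACSL3, and the summed change was -0.35.

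Against the lower doses of the same extract about the same share of genes was called as against vehicle. These comparisons share the 500 ug/mL libraries, so their values are set side by side and are not independent. Against 100 ug/mL, 8073 genes (48.5%) were called, and against 20 ug/mL, 8308 (49.9%, of which 24.5% were higher). Immediate early genes were higher at 500 ug/mL in 20 of 24 against 100 ug/mL and in 21 against 20 ug/mL. The ATF4 response was higher in 26 of 32 against 100 and in 26 against 20 ug/mL, and p53 targets in 25 and 26 of 27. IGFBP1 averaged 39.8, 58.4, 85.1 and 1200.3 CPM in vehicle and at 20, 100 and 500 ug/mL (500 over 100 difference 3.82, adjusted p = 9.08e-37). AQP3 averaged 3.98, 7.48, 12.1 and 156 CPM over the same series (3.69), GDF15 141, 168, 213 and 1072 CPM (2.33) and CDKN1A 95.2, 87, 109 and 496 CPM (2.19). For these 4 genes the step between 100 and 500 ug/mL was the larger part of the whole change. Some genes turned with dose: EGR1 averaged 11.9, 8.92, 7.57 and 106 CPM, lower at 20 and 100 ug/mL than in vehicle by its means, and SLC40A1 65.7, 55.1, 47.5 and 108 CPM. TAGLN3, a neuronal calponin-family protein, was named by the comparison with 20 ug/mL, averaging 6.29 CPM at 500 and 0.282 CPM at 20 ug/mL (4.45). Albumin differed little between the upper doses (-0.06, adjusted p = 0.417).

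Fresh ginger was given at the same mass dose, and 5792 genes (34.8%) were called between these 2 extracts, 16.0% higher and 18.8% lower in Scutellariae. AhR targets were higher in Scutellariae in 9 of 10. CYP1A1 averaged 815 ± 23.1 CPM in Scutellariae and 71.3 ± 0.356 CPM in ginger libraries (SD, n = 3 each; 3.51). p53 targets were higher in all 27, with CDKN1A at 1.21, and ATF4 genes in 25 of 32. Cholesterol genes were higher in Scutellariae in 21 of 28 and lower in 2. Glycolysis and hypoxia genes were lower in Scutellariae in 32 of 36 and higher in 2. CA9 averaged 0.677 ± 0.122 CPM in Scutellariae and 5.75 ± 0.511 CPM in ginger libraries (-3.08), and PFKFB3, which drives glycolytic flux, 5.37 ± 0.127 and 27.8 ± 2.66 CPM (-2.37). Further genes named as lower than in ginger were the long noncoding RNA UCA1 (-3.73), the lipocalin LCN15 (-3.04) and CYP24A1, which inactivates vitamin D (-2.32). Immediate early genes were divided, 7 of 24 higher and 8 lower in Scutellariae, with a median difference of -0.04. HSPA6 had 684 counts in Scutellariae and 3 in ginger libraries, a ratio of 223 (95% counting interval 75.9 to 1083). HAMP was lower than in ginger (5.5 CPM in Scutellariae, 21 CPM in ginger libraries; -1.93), and IGFBP1 was higher by 0.48.

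Coptidis Rhizoma, a root rich in the alkaloid berberine, was given at 210 ug/mL, so that its top dose and that of Scutellariae differ and the values are set side by side only. Between them 9911 genes (59.6%) were called, 28.7% higher and 30.9% lower in Scutellariae. CYP1A1 averaged 815 CPM in Scutellariae and 2253 CPM in Coptidis libraries, and AhR targets were lower in Scutellariae in 9 of 10. All 24 immediate early genes and all 21 ERK feedback genes were lower in Scutellariae, with EGR1 averaging 106 CPM in Scutellariae and 306 CPM in Coptidis libraries. Mitotic genes were higher in Scutellariae in 29 of 30 and replication genes in 34 of 35. Cholesterol genes were higher in 24 of 28 and lower in 3. All 13 mitochondrial transcripts were higher in Scutellariae, MT-ND4L by 1.66. HAMP stood lower in Scutellariae also here, with 5.5 CPM against 63.2 CPM in Coptidis libraries (-3.52), and HSPA6 stood higher, with 9.27 CPM against 1.09 CPM (3.09). Genes named by size in this comparison were ACSM3, SCN1A, SLCO4C1 and HPR as higher (3.00, 2.96, 2.96 and 2.82) and C5AR2, UCA1, TMEM156, MUC5AC and LOXL2 as lower in Scutellariae (-5.85, -5.42, -4.81, -4.66 and -4.32). The latter averaged 0.136, 0.623, 0.707, 0.677 and 0.937 CPM in Scutellariae, against 8.07, 26.8, 20, 17.3 and 18.8 CPM in Coptidis libraries. Against vehicle TMEM156 and MUC5AC were higher in Scutellariae and UCA1 lower. C5AR2 and LOXL2 were not called against vehicle (adjusted p = 0.177 and 0.589).

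**Figure D4:**
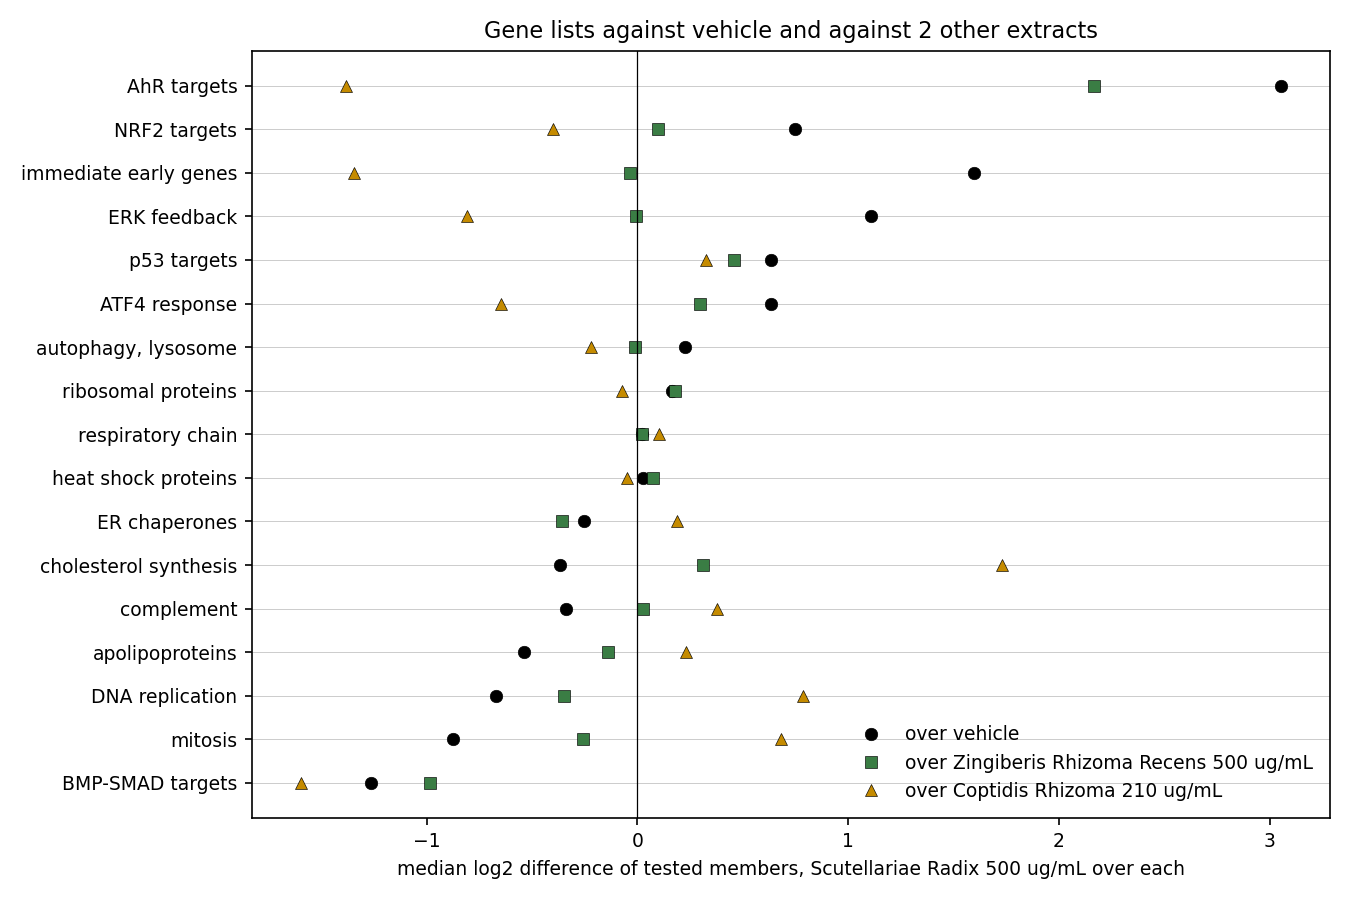
Median log2 difference of the tested members of 17 gene lists (x axis), Scutellariae Radix 500 ug/mL over vehicle (circles), over Zingiberis Rhizoma Recens 500 ug/mL (squares) and over Coptidis Rhizoma 210 ug/mL (triangles), by list (y axis). BMP-SMAD targets lay below 0 in all 3 comparisons (-1.26, -0.98 and -1.60), p53 targets above 0 in all 3, and AhR targets above 0 against vehicle and ginger and below 0 against Coptidis. The 3 comparisons share the Scutellariae libraries and are not independent.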

How the data were processed

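RNA from HepG2 cells was sequenced as paired reads of 100 bases with the MGIEasy RNA Directional kit, per the labels' protocols. Gene-level expected counts, as deposited, were made by the authors with RSEM 1.3.3 after FastQC 0.11.9, Trim Galore 0.6.5 and STAR 2.7.3a on GRCh38, per the submitters' processing notes. The gene annotation and the strand setting of that step are not stated in the labels or notes. Low-RNA samples were excluded, per the series text. Of 267 columns 59 matched labelled samples and 208 were not used.

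Expected counts, 24.44% of which were not whole where nonzero, were rounded to whole numbers. Genes passed edgeR's filterByExpr (16641 of 60675), and TMM factors scaled the totals. One quasi-likelihood fit (edgeR 4.0.16, limma 3.58.1, R 4.3.3) with 20 group means over 59 libraries gave the 5 comparisons, with Benjamini-Hochberg adjustment over 16641 genes and two-sided calls under 0.05. CPM were computed with TMM-scaled totals, which ranged from 21582620 to 31392112 before scaling. Counting intervals are exact and cover counting error only, and a floor of 3 counts over a group stands for 0. Named genes were the 12 largest changes in each direction against vehicle, the 6 largest in each other comparison, and members of 51 lists by role, some of which are not reported here. The members and lists were chosen with earlier results of these data known. Chromosome positions are from GENCODE release 29 on GRCh38, and start-site windows from RefSeq. The test was checked on simulated counts. Alternatives were other size factors, no filter, a replicate block, fits of the compared groups alone, DESeq2 1.42.0, and fits without single libraries. A fit without 3 libraries of other groups that stand apart was tried, as were, chosen after seeing the data, counts summed over near-identical copies.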

Additional observations from a re-analysis of the deposited data

How the results depend on the processing

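Every number of called genes stayed within 1.5 times its main value under each alternative. Against vehicle it was 8354 and ranged from 7925 (DESeq2) to 8860 (only the groups compared), and without 1 library from 7679 to 7805. Without 1 library it ranged from 7629 to 7756 against 20 ug/mL, from 7322 to 7487 against 100 ug/mL, from 4991 to 5199 against fresh ginger and from 9223 to 9364 against Coptidis. Fits with other size factors shifted the median change of all genes by less than 0.1. Whether replicate numbers pair the samples is not stated in the labels, and weak correlations within groups of 3 libraries cannot decide it. Same-numbered deviations from the group means correlated at 0.018, 0.016 and 0.001 against vehicle, and the fit with a replicate block called 8369 genes. Against 20 ug/mL each library correlated best with its own number (0.11, 0.065 and 0.066), and the block called 8306 genes. With the counts of both copies summed, EIF3CL and EIF3C changed by 0.0188 and the fall of EIF3CL was lost. Among 246 gene values in the text no other called change turned its sign. Calls at small changes moved most: ETV4 and UGDH lost theirs with no filter on low counts, as did HNF4A and NR1I3, and ARNT and PRDX1 gained one when only the groups compared were fitted. Of 102 list counts against vehicle, 8 moved by over 1.5 times when only the groups compared were fitted, 6 with no filter, 4 with DESeq2, 4 without the 3 libraries that stand apart, 1 with the replicate block and 0 with other size factors. In the fits without 1 library, 41 list counts moved and 571 stayed within 1.5 times. At this depth the change of CYP2B6 against vehicle, with 3 counts over each of the 2 groups, could not be measured.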
